A study of Mus musculus with 36 samples.

Results

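Pleiotrophin (Ptn) and midkine (Mdk) are the 2 members of one family of small secreted growth factors, and they are 2 of the 31102 genes listed in the deposited tables of this mouse salivary gland tumor study. They were chosen from measured values of these same samples: their levels per gland by genotype and stage and across marker-defined cells in 26 Drop-seq libraries, and in both bulk RNA-seq libraries. Those levels are therefore given as a description, and tests were kept to sex, to separate CITE-seq glands and to genes other than Ptn and Mdk.

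Both proteins bind heparan and chondroitin sulfate chains and act as cytokines on neighboring cells. Receptor-type phosphatases, syndecans, LRP1, integrins and ALK-family kinases are among the binding partners known for them. The family is prominent in embryonic tissue, where midkine and pleiotrophin accompany epithelial to mesenchymal crosstalk, and both genes are often expressed in tumors and their stroma.

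Each library came from 1 submandibular gland of a C57BL/6 mouse. Control mice carried K14-Cre and a Cre-inducible R26-EYFP reporter, and double-mutant mice carried these plus a β-catenin gain-of-function (beta-catenin GOF) and a Bmpr1a loss-of-function (Bmpr1a LOF) allele, so recombination was driven in K14-expressing basal cells in both groups. Drop-seq, which counts molecules per cell by unique molecular identifiers (UMIs), covered 12 control glands (6 at postnatal day 40, P40, and 6 at P90) and 14 double-mutant glands (7 at each stage), of both sexes. CITE-seq, which adds antibody tags to the RNA readout, covered 2 control glands (1 labelled male, 1 female) and 2 double-mutant glands (both labelled female) at P70, and bulk RNA-seq covered 1 control (P70) and 1 double-mutant (P100) gland, both female.

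After filtering, 23346 of 26987 Drop-seq barcodes were kept, with 606 to 1209 cells and 650301 to 6994504 UMIs per gland, and the double-mutant groups held the shallowest libraries. The kept cells of different libraries shared 14 barcodes, at most 1 in any pair of libraries. In 2 libraries, double-mutant P40 replicate 1 (labelled male) and double-mutant P90 replicate 5 (labelled female), Xist and Y-linked transcripts went against the labelled sex, and all 4 CITE-seq libraries held both kinds of transcript. Glands are also marked by a prefix in their titles, B6 to B14. All P90 control glands have prefixes B7 to B9 and all P40 control glands B12 to B14, so stage and prefix cannot be told apart among controls. Where levels are given of a whole gland as counts scaled to 1000000 UMIs (CPM), fewer cells of a type and less RNA per cell cannot be told apart.

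Ptn lies on the minus strand of chromosome 6 at chr6:36714929-36810220 and Mdk on the minus strand of chromosome 2 at chr2:91929805-91932297 (mm10, GENCODE vM7). Their exons cover 3433 and 1324 bases. Their transcripts shared no run of 50 bases, and the longest run in common was 15 bases. Mdk shared 2 of its 1325 runs of 50 bases with the processed copy Mdk-ps1. Because the double-mutant glands carry an activated β-catenin, whose DNA-binding partners are the TCF/LEF factors, the stretch of 209 bases just upstream of Ptn is shown (RefSeq, GRCm38.p6, chr6:36810221-36810429, minus strand, 5′ to 3′). It has no capitals because neither motif searched was present.
Ptn upstream: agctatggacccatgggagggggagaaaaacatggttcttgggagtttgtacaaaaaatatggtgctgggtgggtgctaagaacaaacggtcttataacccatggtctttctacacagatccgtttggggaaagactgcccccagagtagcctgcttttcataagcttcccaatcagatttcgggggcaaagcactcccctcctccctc
The letters CTTTGA (the TCF/LEF core), searched on both strands, did not occur in this window, while 12.2% of 32851 windows of the same length upstream of other genes held them. GGCGCC, a GC-rich element known for BMP-responsive SMAD factors, was also missing here and occurred in 7.59% of windows. The GC content of the window was 49.8%, against a median of 51.7% over all windows.

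Ptn was higher in most double-mutant glands than in most control glands. In the 6 control P40 glands, replicates 1 to 6, it measured 89.5, 28.2, 0.858, 4.82, 0.792 and 16.4 CPM, and in the 6 control P90 glands 50.4, 57.6, 4.76, 0.95, 5.47 and 55.8 CPM. In the 7 double-mutant P40 glands it measured 79.3, 314.0, 5.53, 54.9, 329, 206.8 and 68.8 CPM, and in the 7 double-mutant P90 glands 12.9, 144.5, 193.8, 796, 640.2, 97.2 and 0.764 CPM. The genotypes overlapped: 8 of 14 double-mutant glands lay above the highest control and 12 of 14 above the control median, while the lowest value of all belonged to a double-mutant gland. The means were 26.3 ± 29.9 CPM (SD, n = 12) in control and 210.3 ± 241 CPM (SD, n = 14) in double-mutant glands, a ratio of 8.0.

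The ratio of means between genotypes was 6.45 at P40 and 9.24 at P90. Without control P40 replicate 1, which was far above the other controls of its age, the P40 ratio was 14.8. Within the 5 title prefixes that hold both genotypes, the mean of Ptn was higher in double-mutant glands in 5 of 5, by ratios of 1.29 (B12) to 209 (B13). The B13 ratio rested on 1 control gland, a P40 male with 6 Ptn UMIs, and the B8 controls were 2 males with 8 and 2 Ptn UMIs. Within these prefixes, sex or stage was not balanced between the genotypes. On the log2 scale the double-mutant to control ratio of mean CPM was 3.0 for Ptn and 0.67 for Mdk, and its median over 10483 genes was 0.68. The ratio of Ptn thus lay far above that of the median gene, and the ratio of Mdk lay at it. Between stages, Ptn means were 23.4 ± 34.1 (P40) and 29.2 ± 28.0 CPM (P90, both n = 6) in control and 151 ± 131 and 269 ± 317 CPM (both n = 7) in double-mutant glands, differences smaller than the SDs.

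Mdk was the rarer transcript in most glands, with 1 to 38 UMIs in a gland against 2 to 792 for Ptn. The lowest Ptn values also rested on few UMIs, such as 3 in double-mutant P90 replicate 7 and 2 in control P90 replicate 4. Those glands held 4 and 2 Mdk UMIs. Mdk measured 8.17, 2.70, 0.858, 1.26, 0.317 and 1.28 CPM in control P40, and 16.2, 1.76, 0.595, 0.95, 3.13 and 20.1 CPM in control P90 replicates 1 to 6. In double-mutant replicates 1 to 7 it measured 11.3, 19.0, 2.76, 6.97, 10.8, 4.96 and 3.50 CPM at P40 and 1.96, 11.4, 6.82, 7.48, 13, 5.45 and 1.02 CPM at P90. The highest Mdk value belonged to a control gland and none of the 14 double-mutant glands exceeded it, although 13 of 14 lay above the control median. The double-mutant to control ratio of means was 3.48 at P40 and 0.944 at P90, and at P90 the ratio of medians was 2.79, with the 2 highest values in control females, at 16.2 and 20.1 CPM. Without control P90 replicate 6 or replicate 1, the P90 ratio of means was 1.49 or 1.27, and without control P40 replicate 1 the P40 ratio was 6.59. Within prefixes holding both genotypes, again not balanced in sex or stage, mean Mdk was higher in double-mutant glands in 4 of 5.

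**Figure D1:**
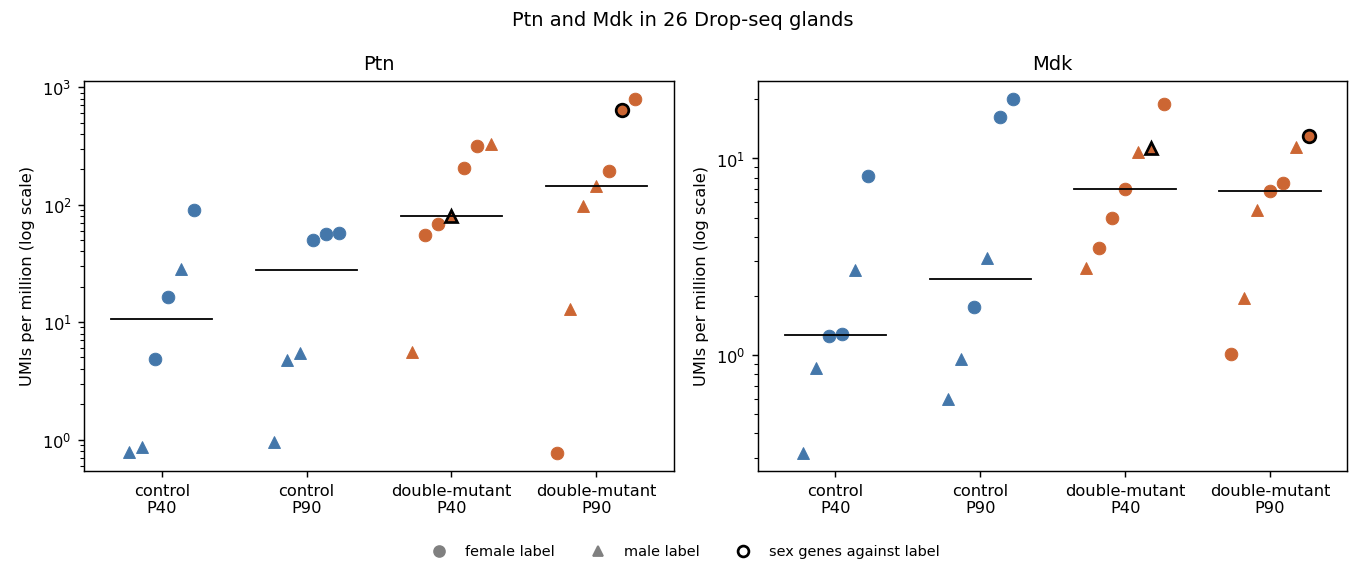
Ptn (left) and Mdk (right) in each of the 26 Drop-seq glands, in CPM on a log axis, by genotype and stage. Circles are glands labelled female, triangles glands labelled male, black outlines mark the 2 glands whose sex genes went against the label, and the bars are group medians. Ptn spans from 0.764 to 796 CPM and the genotypes overlap, and in controls the circles sit mostly above the triangles.

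Sex was not used to choose the genes and was tested. In control glands, Ptn was 45.7 ± 30.7 CPM (SD, n = 6) in females and 6.84 ± 10.7 CPM (SD, n = 6) in males, with 4 of 6 females above the highest male. In double-mutant glands it was 284 ± 289 CPM (SD, n = 8) in females and 111 ± 119 CPM (SD, n = 6) in males, with 2 of 8 females above the highest male, by the labels. These double-mutant values hold both libraries whose sex genes went against their labels, at 640.2 CPM (labelled female, with Y-linked transcripts) and 79.3 CPM (labelled male, with Xist). Without them the means were 234 ± 270 CPM (SD, n = 7) and 118 ± 132 CPM (SD, n = 5), with 1 of 7 females above the highest male. Females were thus higher on average in control glands, while in double-mutant glands the difference was smaller than the SD among females and its size depended on these 2 libraries. Over all 26 glands, with genotype and stage in the model, the male minus female log2 fold change of Ptn was -1.74 (SE 0.61), which did not pass edgeR's quasi-likelihood test after Benjamini-Hochberg adjustment (adjusted p = 0.454, unadjusted p = 0.00866). That of Mdk was -0.82 (SE 0.43, edgeR adjusted p = 0.643), and 0.362% of the 10488 genes tested were called, in either direction. Without the filter on low counts, the call for Ptn was made (edgeR adjusted p = 0.000269), and without those 2 libraries it was not (-1.75, edgeR adjusted p = 0.270). Within a prefix and genotype holding both sexes, female means of Ptn were higher in 5 of 7 cases and female means of Mdk in 5 of 7. B11, which holds both libraries at odds with their labels, was 1 of the 5 for either gene, and leaving this prefix out gave 4 of 6. The double-mutant cases of B11, B12 and B13 also set glands of different stages against each other, so sex and stage were mixed there.

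The sex difference itself was compared between genotypes. For Ptn the interaction on the log2 scale was 1.07 (SE 1.17, edgeR adjusted p = 1) and for Mdk 1.92 (SE 0.79, edgeR adjusted p = 1, unadjusted p = 0.0227). Of 11420 genes, 0% were called by edgeR's quasi-likelihood test, with 398 at an unadjusted p under 0.05, and 2 by DESeq2. In controls, mean Mdk was 5.71 times higher in females than in males. In double-mutant glands that ratio was 1.08, and 0.945 when glands were scaled by TMM. Beside these values, basal-like cells (defined below) made up 1.80 to 9.76% of cells in control females (median 5.71%) and 0.105 to 4.02% in control males (median 0.506%), and 0.588 to 24.8% (median 9.19%) and 1.1 to 8.51% (median 5.29%) in double-mutant females and males. Levels within pooled control basal-like cells differed by sex too. Ptn was 1441 CPM in females and 616 CPM in males, and Mdk 204 and 33.8 CPM (4 UMIs in males). Only 2 male glands held 10 or more such cells, against 6 female glands. In double mutants, by label, basal-like Ptn was 634 CPM in females and 420 CPM in males, and Mdk 41.9 and 84.1 CPM. In control glands all 6 basal markers had a higher mean in females, with a summed level of 24.1 to 213 CPM against 2.05 to 56.4 CPM in males, and none was at 0 in all glands of a sex. Some other types moved the same way in controls. All 8 immune markers (57.3 to 500.3 against 31.2 to 461 CPM) and all 6 endothelial markers (18.7 to 161 against 4.57 to 151 CPM) had higher means in females. So did 7 of 8 CSC markers (3.22 to 20.5 against 0.285 to 8.76 CPM), with Dkk4 at 0 in all females. Fibroblast markers were mixed, with a higher mean in females for 2 of 7. Their summed level was 58.2 to 292 CPM (median 99.7) in females and 37.9 to 240 CPM (median 52.8) in males. The part of these cell shares, levels and markers in the sex values was not tested.

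The 4 CITE-seq glands were not among those used to choose the genes, and Ptn was higher in double-mutant glands there too. It measured 234.2 and 211.8 CPM in double-mutant replicates 1 and 2 and 17.7 and 18.1 CPM in the controls. Mdk measured 26.3 and 29.8 CPM against 5.72 and 8.16 CPM. For both genes each double-mutant gland lay above each control gland. Sex was no covariate in this fit. The log2 fold change of Ptn was 2.92 (SE 0.28, edgeR adjusted p = 0.00162), while Mdk at 1.27 (SE 0.37) missed the threshold (edgeR adjusted p = 0.0574; 0.0408 with the replicate number as a block). 9.24% of the 10058 genes tested were called higher. These fold changes are after TMM scaling; on unscaled CPM the median gene was higher by 0.71 on the log2 scale in double-mutant glands, Ptn by 3.64 and Mdk by 2.02. In these glands all 7 fibroblast markers were higher in the double mutants, with a summed level of 2131 and 2618 CPM against 468 and 548 CPM, and none was at 0. So were all 7 markers measured of the stem-like cells described next (44.0 and 45.8 against 11.8 and 11.9 CPM, with Dkk2 and Nkd1 at 0 in both controls), while 1 of 6 basal markers was higher (5.28 and 20.2 against 29.2 and 47.6 CPM). Their part in the Ptn and Mdk values was not tested.

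Cell types were read from a clustering of the Drop-seq cells from which Ptn, Mdk and the 18 binding-partner genes below had been held out. Names end in "-like" because they rest on marker genes alone. Basal-like cells (1377) carried the basal keratin Krt14 at 1307 CPM against 9.84 CPM in other cells, and the basal transcription factor Trp63 at 256 against 1.70 CPM. CSC-like cells (290; CSC stands for the cancer stem cells that the study names) carried the Wnt feedback genes Notum at 691 against 2.55 CPM and Axin2 at 616 against 3.15 CPM, the Wnt inhibitor Dkk4 at 474 against 0.0839 CPM, and Bmp4 at 624 against 1.01 CPM. Fibroblast-like cells (406) carried the collagen gene Col3a1 at 4591 against 1.85 CPM and Pdgfra at 446 against 0.168 CPM. The naming rule used these same markers, so their levels describe the clusters and are no separate check of the names. Schwann cells formed no named cluster.

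CSC-like cells held by far the highest Ptn level. Ptn in pooled CSC-like cells was 8425 CPM (95% exact Poisson interval 8080 to 8782), against 869 CPM in fibroblast-like and 817 CPM in basal-like cells. Next came pericyte-like (73.4 CPM), endothelial-like (47.0 CPM) and myoepithelial-like cells (41.8 CPM), and the secretory acinar-like cells were lowest at 0.539 CPM. Intervals here and below cover counting error only. Over both genotypes the order between fibroblast-like and basal-like cells is not settled, since each was the higher in 7 of 14 glands with 10 or more cells of both. Pooled by genotype, basal-like cells were the higher in controls (1242 against 65.9 CPM, with only 66 control fibroblast-like cells). In double mutants, pooled fibroblast-like cells were the higher (1133 against 571 CPM).

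In the 8 double-mutant glands with 10 or more CSC-like cells, the Ptn level within them was 9122, 8640 and 9024 CPM in P40 replicates 2, 5 and 6 (15, 24 and 41 cells), and 8054, 6119, 9570, 8706 and 6404 CPM in P90 replicates 2 to 6 (12, 17, 60, 75 and 20 cells). The values stayed within a narrow band over both stages, 8205 ± 1278 CPM (SD, n = 8). Ptn was higher in CSC-like than in basal-like cells of the same gland in 8 of 8 glands, with a basal-like mean of 435 CPM, and higher than in fibroblast-like cells in 7 of 7. CSC-like cells were found in 12 of 14 double-mutant glands and as a single cell in 1 of 12 control glands; that cell had 8 Ptn UMIs. With 1.24% of the cells, they held 53.5% of all 4190 Ptn UMIs.

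**Figure D2:**
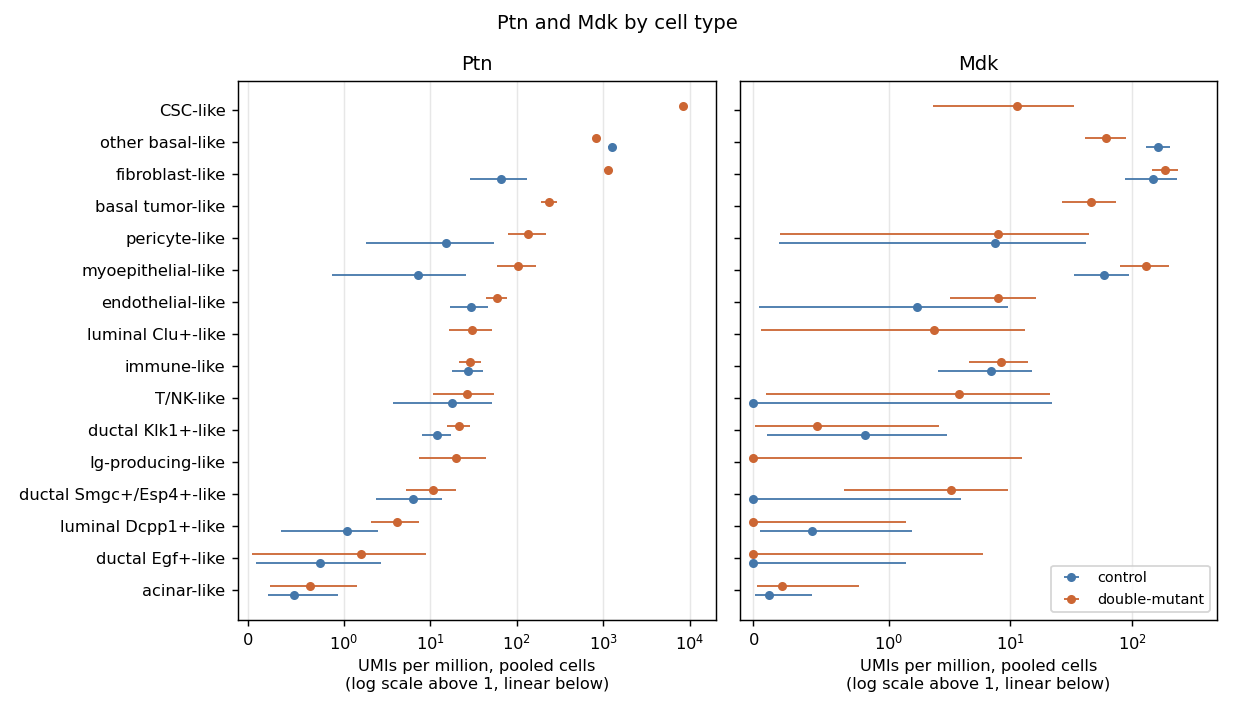
Ptn (left) and Mdk (right) in pooled cells of each type, in CPM on an axis that is logarithmic above 1 and linear below, for control (blue) and double-mutant (orange) cells. Bars are 95% exact Poisson intervals and cover counting error only. Ptn is highest in CSC-like cells, at 8421 CPM in the double mutants, and Mdk in fibroblast-like cells.

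A cell of the CSC-like kind usually showed Ptn. At least 1 Ptn UMI was seen in 91.0% of CSC-like cells, 27.1% of basal-like and 22.2% of fibroblast-like cells (median depths 758, 732 and 797 UMIs per cell). When each cell was thinned to 500 UMIs, which left out 92 CSC-like, 418 basal-like and 95 fibroblast-like cells, the shares were 88.9%, 24.1% and 16.7%. As a background, T/NK-like cells, lymphocytes taken here as cells that should lack the gene, showed a Ptn UMI in 1.72% of cells (1.49% thinned, median depth 594.5 UMIs) and immune-like cells, mostly macrophage genes, in 1.27% (1.03% thinned, median depth 637 UMIs). Mdk was rarer, with a UMI in 0.216% of T/NK-like (0.373% thinned) and 0.730% of immune-like cells (0.545% thinned). It was seen in 15.3% of fibroblast-like cells (9.32% thinned), 7.41% of basal-like (5.74% thinned) and 1.03% of CSC-like cells (0.505% thinned, below the immune-like background). Single cells differed between the genes as well: Ptn UMIs came in 966 cells with up to 55 in a CSC-like cell, while the 305 Mdk UMIs lay in 245 cells, 81.6% of them with 1 UMI.

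Basal-like cells carried Ptn in healthy glands as well, and at a higher level there. Pooled, Ptn was 1242 CPM in the 382 control and 571 CPM in the 995 double-mutant basal-like cells. Over glands with 10 or more such cells it was 726 to 2576 CPM in 8 control glands (1265 ± 695, SD) and 64.8 to 1525 CPM in 13 double-mutant glands (545 ± 394, SD), so the ranges overlapped. The share of cells with a Ptn UMI followed the same order, 52.9% against 17.2%, or 37.8% against 15.9% after thinning. Within the double mutants, the basal tumor-like cells, which carried the Wnt inhibitor Wif1 at 1921 CPM against 9.97 CPM elsewhere, had 238 CPM of Ptn (506 cells, 296 ± 207 CPM over 9 glands), and the other basal-like cells 834 CPM (804 ± 450 CPM over 12 glands). In 8 of the 9 glands that held both, the other basal-like cells had more Ptn. By stage, basal-like Ptn was 1294 CPM at P40 and 1192 CPM at P90 in controls, and 660 and 396 CPM in double mutants.

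Fibroblast-like cells differed between genotypes in the opposite direction for Ptn. The 66 control cells had 8 Ptn UMIs in all, 65.9 CPM (95% exact Poisson interval 28.4 to 130 CPM), and the 340 double-mutant cells had 419, or 1133 CPM. Over the 12 double-mutant glands with 10 or more of them, the level ran from 48.4 to 3878 CPM with a median of 680 CPM. That spread was wide, 1147 ± 1230 CPM (SD, n = 12), and only 2 control glands reached 10 such cells (0 and 458 CPM). Double-mutant fibroblast-like Ptn was 1408 CPM at P40 and 664 CPM at P90, and, by labelled sex with all libraries kept, 1817 CPM in females and 371 CPM in males. Myoepithelial-like cells, the contractile cells around acini, had 7.26 CPM in controls and 103 CPM in double mutants, resting on 2 and 16 UMIs.

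**Figure D3:**
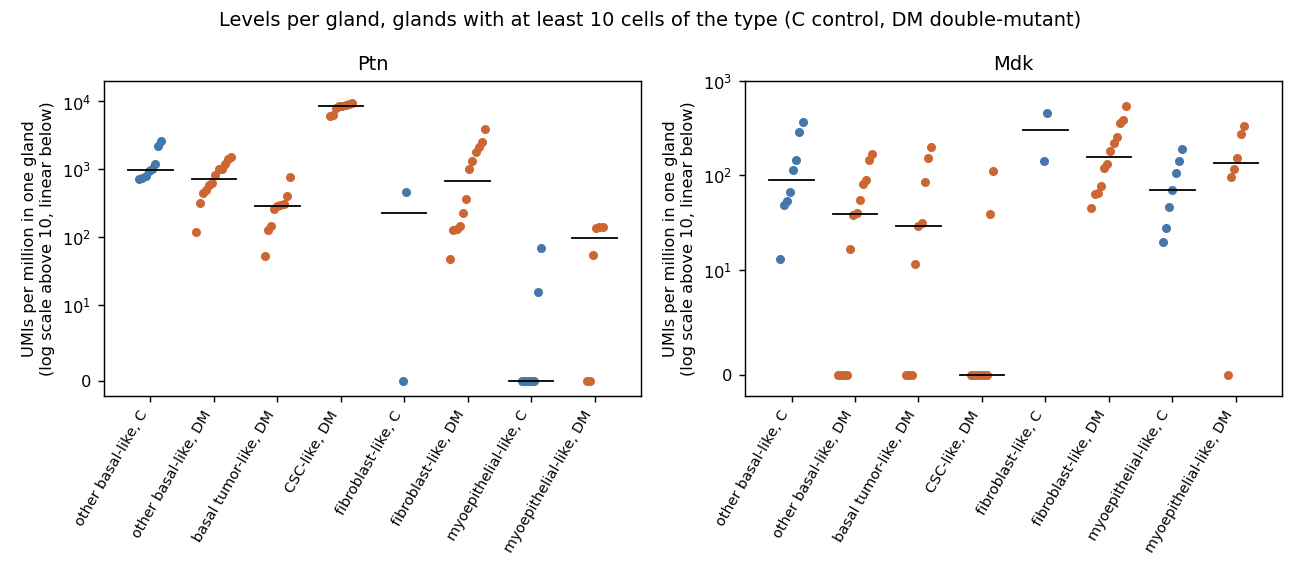
Ptn (left) and Mdk (right) in 5 cell types of single Drop-seq glands with at least 10 cells of the type, in CPM on an axis that is logarithmic above 10 and linear below, for control (C, blue) and double-mutant (DM, orange) glands. Each point is 1 gland and bars are medians. CSC-like Ptn lies between 6119 and 9570 CPM in the 8 double-mutant glands, above every point of the other types, while most CSC-like points for Mdk are at 0.

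The cells that supplied Ptn therefore differed between genotypes. In control glands, basal-like cells held 82.6% of the 737 Ptn UMIs followed by ductal Klk1+-like cells with 3.93%. In double-mutant glands, CSC-like cells held 64.7% of 3453 Ptn UMIs, basal-like cells 14% and fibroblast-like cells 12.1%. Summed per gland, basal-like and CSC-like cells held a median of 83.7% of Ptn UMIs in control glands (33.3 to 100%) and 82.1% in double-mutant glands (44.4 to 100%). In cells pooled by genotype, Ptn went from 18.5 CPM in control to 108.0 CPM in double-mutant cells, a difference of 89.4 CPM. Computed as a sum over types, the larger share of RNA from CSC-like cells made up 69.7 CPM of it. Controls held fewer than 10 CSC-like cells, so the double-mutant level was used for both genotypes. For this type the sum could thus give no part to a change in level. For basal-like cells, the larger share (12.8 CPM) and the lower level within them (-13 CPM) were of similar size.

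Mdk had another order of types. It was highest in fibroblast-like cells (177 CPM, 95% exact Poisson interval 142 to 218 CPM), followed by basal-like (94.3 CPM) and myoepithelial-like cells (83.6 CPM, interval 58.6 to 116 CPM), whose intervals overlapped. CSC-like cells, which led for Ptn, held 3 Mdk UMIs in all, 11.3 CPM (interval 2.32 to 32.9 CPM). Within single glands, Mdk was higher in fibroblast-like than in basal-like cells in 11 of 14, with means of 217 and 54.4 CPM, and higher than in CSC-like cells in 7 of 7. Between basal-like and myoepithelial-like cells neither led clearly (5 against 7 of 12 glands).

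Fibroblast-like Mdk was similar in both genotypes, 148 CPM in control (18 UMIs, interval 87.8 to 234 CPM) and 187 CPM in double-mutant cells (69 UMIs, interval 145 to 236 CPM). In basal-like cells it was 138 ± 127 CPM (SD, n = 8) in control and 49.1 ± 41.9 CPM (SD, n = 13) in double-mutant glands, and within controls 79.1 CPM at P40 and 244 CPM at P90 in pooled cells. Per control gland, the basal-like level was 81.7 ± 59.6 CPM at P40 and 193 ± 161 CPM at P90 (SD, both n = 4), with overlapping ranges. These pools were not matched for sex, and pooled control basal-like Mdk was 204 CPM in females and 33.8 CPM in males. Myoepithelial-like cells had 58.1 CPM in control and 129 CPM in double-mutant glands. In control glands basal-like cells held 59.7% of the 134 Mdk UMIs and fibroblast-like cells 13.4%, while in double-mutant glands fibroblast-like cells held 40.4% of 171 and basal-like cells 26.9%.

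**Figure D4:**
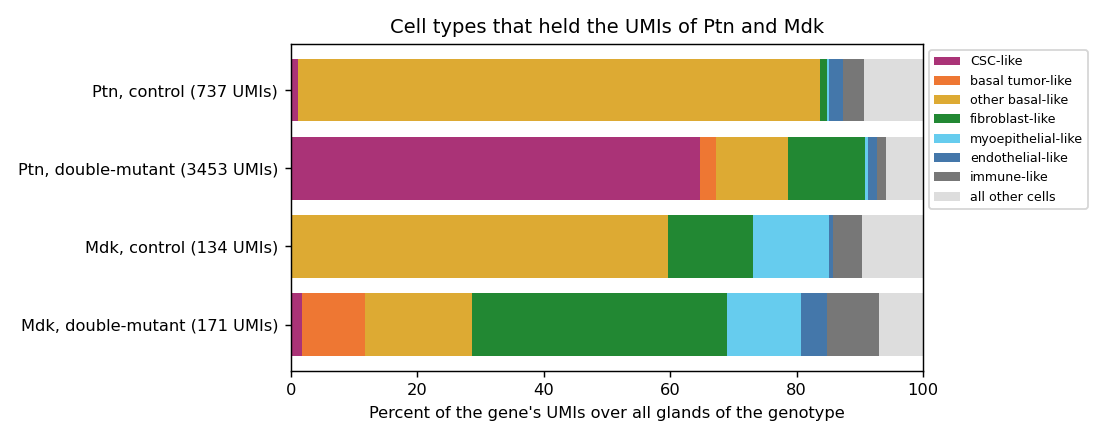
Share of all Ptn or Mdk UMIs, in percent of the gene's UMIs over all glands of a genotype, held by each cell type (colors), one bar for each gene and genotype. Other basal-like cells lead for both genes in controls, CSC-like cells hold 64.7% of Ptn in double-mutant glands, and fibroblast-like cells 40.4% of Mdk.

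Few cells showed both transcripts. Of 23346 cells, 67 had a UMI of each. Among control basal-like cells, Ptn was seen in 52.4% of the 63 cells with an Mdk UMI and in 53.0% of the rest (median depths 1054 and 954 UMIs). In double-mutant basal-like cells the shares were 30.8% of 39 (95% exact binomial interval 17.0 to 47.6%) and 16.6% (14.3 to 19.1%), but the cells with an Mdk UMI were also deeper (median 918 against 586 UMIs).

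The genes whose level followed Ptn or Mdk most closely were read from 27 points, each a cell type in 1 genotype or both with 50 or more cells, over 10080 genes. By Pearson's r of log2 CPM with a pseudocount of 10, Ptn was most like Smoc2 (0.919), Gpc1 (0.898), Dip2c (0.877), Notum (0.871) and Kremen1 (0.860). Notum and Kremen1 act against Wnt signals and Gpc1 is a heparan sulfate proteoglycan of the cell surface. The genes most like Mdk included Dcn (0.919), Pdpn (0.915), Vcan (0.914) and Efemp1 (0.906). Dcn and Vcan encode matrix proteoglycans. Between Ptn and Mdk, r was 0.623. The points share libraries and differ in depth, so these values are a description.

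Of the 18 binding-partner genes, 13 had enough UMIs to be tested by genotype in whole Drop-seq glands, and several were higher in double-mutant glands. Sdc1 was 1.79 to 8.05 CPM in controls (median 3.80) and 3.99 to 79.5 CPM in double mutants (median 21.9), and Lrp1 was 0.858 to 8.11 CPM (median 3.53) and 2.80 to 132 CPM (median 19.4). Both were higher in most double-mutant glands, with some overlap. The syndecans Sdc3 (log2 fold change 3.27, SE 0.63) and Sdc1 (1.94, SE 0.31), the endocytic receptor Lrp1 (2.26, SE 0.37), the integrin subunits Itga4 (2.12, SE 0.45) and Itgav (1.02, SE 0.23), the co-receptor Nrp1 (1.36, SE 0.36) and the receptor Notch2 (0.85, SE 0.24) rose. Their adjusted p-values by edgeR's quasi-likelihood test were between 0.000213 and 0.0154. That is 7 of 13 genes higher and 0 lower, where 14.4% of all 10488 genes were called higher, and the list's median log2 fold change was 1.02 against 0.02 over all genes tested. Ptprs, a receptor-type phosphatase, had 1.19 (edgeR adjusted p = 0.0521), Itgb1 0.28 (0.0783), Ncl 0.11, Sdc2 0.05, Sdc4 -0.02 and Itga6 -0.18, none of them called. The direction of Sdc4 turned under DESeq2's scaling, with prefix as a term and with thinned glands.

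With the title prefix as a term, only Lrp1 (log2 fold change 1.99, edgeR adjusted p = 0.0388) and Sdc1 (1.68, edgeR adjusted p = 0.0256) were still called, and the other 5 had adjusted p-values of 0.0545 to 0.177. Other cell types moved with these values. All 8 immune markers were higher in double-mutant glands, with a summed level of 284 to 2845 CPM (median 1312) against 31.2 to 500.3 CPM (median 170), and so were all 7 fibroblast markers (108 to 979 against 37.9 to 292 CPM), all 6 endothelial markers (30.3 to 763 against 4.57 to 161 CPM) and all 6 basal markers (9.09 to 633 against 2.05 to 213 CPM), with none at 0 in all glands of a genotype. Their part in the whole-gland values was not tested. By type, Sdc3 was highest in immune-like cells (96.0 CPM), Lrp1 in fibroblast-like (570 CPM, 101 CPM in immune-like), Nrp1 in endothelial-like (1019 CPM), Itga4 in Ig-producing-like (95.3 CPM) and Itgav in immune-like cells (98.3 CPM). Sdc1 was highest in the CSC-like cells themselves (263 CPM), then in Ig-producing-like (221 CPM) and basal-like cells (159 CPM).

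In basal-like cells (8 control and 13 double-mutant glands), 6 binding-partner genes could be tested. Sdc1 was 68.7 ± 26.7 CPM (SD, n = 8) in control and 238 ± 173 CPM (SD, n = 13) in double-mutant glands, and Lrp1 was 23.5 ± 23.6 and 119 ± 102 CPM. Both varied widely among double-mutant glands. The cells compared differed in make-up: basal tumor-like cells were 506 of the 995 double-mutant but 2 of the 382 control basal-like cells. Lrp1 (2.05), Sdc1 (1.59) and the integrin subunit Itgb1 (0.90) rose on the log2 scale, with adjusted p-values of 0.0306, 0.0177 and 0.0106 by edgeR's quasi-likelihood test. That is 3 of 6, against 8.77% of 1265 genes called higher, with a list median of 0.92. Itga6 was at 0.94 (edgeR adjusted p = 0.0812), and Ncl and Sdc4 both at -0.28, uncalled. With prefix as a term, none of the 3 was called (edgeR adjusted p = 0.781 to 0.842), and without the 2 libraries whose sex genes went against their labels Lrp1 was not (edgeR adjusted p = 0.0870).

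In the CITE-seq glands, 4 of 13 binding-partner genes tested were called higher and 0 lower, beside 9.24% of all genes called higher, with a list median of 0.57: Lrp1 (2.33), Sdc1 (2.28), Sdc3 (2.23) and Nrp1 (1.41), with adjusted p-values of 0.00858, 0.0215, 0.0249 and 0.0252 by edgeR's quasi-likelihood test. Leaving out 1 library at a time gave 1 to 3 calls on this list: 2 without double-mutant replicate 1, and 1 without double-mutant replicate 2 or control replicate 2. In these glands all 8 immune markers (2599 and 2915 against 608 and 634 CPM) and all 6 endothelial markers (81.5 and 116 against 19.1 and 48.2 CPM) were higher in the double mutants as well, with none at 0. Their part in these values was not tested. The receptors best known for pleiotrophin could not be tested by genotype: Ptprz1 had 138 UMIs over all Drop-seq cells, Alk 1, Ltk 9 and Gpc2 0. Ptprz1 was 0.883 ± 0.838 CPM (SD, n = 12) in control and 6.43 ± 8.03 CPM (SD, n = 14) in double-mutant Drop-seq glands. Where Ptprz1 was seen, its level was highest in CSC-like cells at 78.9 CPM (21 UMIs), followed by myoepithelial-like (58.1 CPM) and basal-like cells (32.2 CPM). By sex, 0 of the 13 binding-partner and 0 of the 19 glycosaminoglycan genes were called by edgeR, with 1 of each list at an unadjusted p under 0.05.

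**Figure D5:**
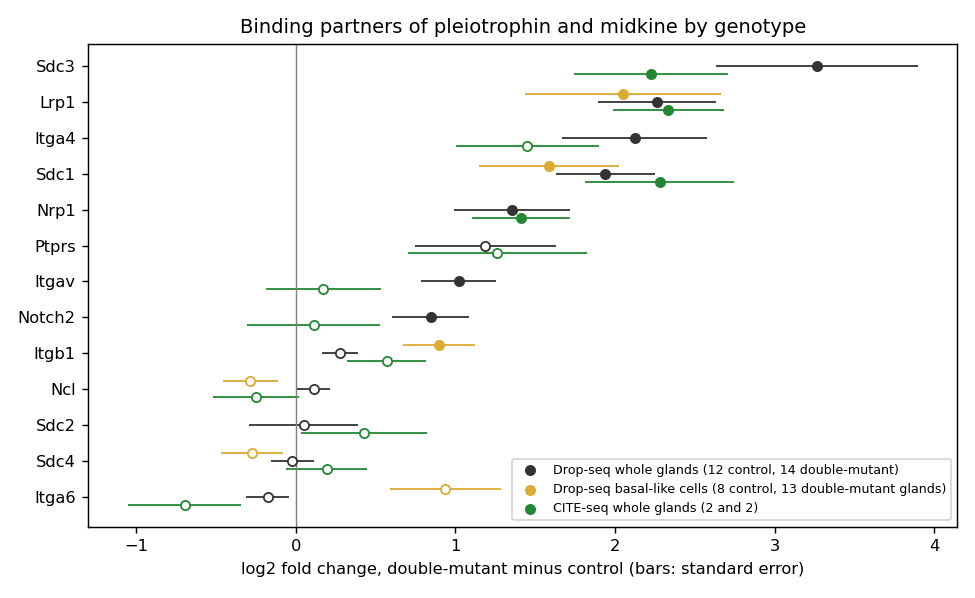
Log2 fold change, double-mutant minus control, of the binding-partner genes that could be tested, with standard errors as bars, in whole Drop-seq glands (black, 12 and 14 glands), basal-like cells (yellow, 8 and 13 glands) and whole CITE-seq glands (green, 2 and 2 glands). Filled points passed edgeR's test after adjustment and open points did not. Lrp1 and Sdc1 are filled in all 3 sets, from 1.59 to 2.33, and Sdc4 and Ncl lie near 0 and are open.

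The sulfated chains that bind Ptn and Mdk are built by a second set of 28 genes. In whole Drop-seq glands 19 could be tested, of which 4 were called higher in double mutants and 0 lower, beside 14.4% of all genes called higher, with a median log2 fold change of 0.45: the chondroitin enzymes Dse (1.67) and Chsy1 (1.45), the sulfatase Sulf2 (1.31) and the heparan sulfate polymerase Ext1 (0.88), with adjusted p-values of 0.0102, 0.0238, 0.00272 and 0.0180 by edgeR's quasi-likelihood test. None of them was called with prefix as a term (edgeR adjusted p = 0.147 to 0.317), and Chsy1 was not without the 2 libraries whose sex genes went against their labels (edgeR adjusted p = 0.0716). In the CITE-seq glands 13 could be tested, and Dse (2.81), Chsy1 (2.78) and Ext1 (2.24) were called higher by edgeR, beside 9.24% of all genes, though each lost the call without 1 or more of the libraries. In basal-like cells none of the 28 had enough UMIs.

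In the bulk libraries, which kept undissociated tissue, the differences were small. Ptn had 149 reads in the control and 201 in the double-mutant library, and Mdk 92 and 76, of 34515744 and 34729551 reads. Per length, Ptn was 1.10 and 1.5 TPM and Mdk 1.77 and 1.47 TPM, so Mdk was the higher of the pair in the control gland and both were about level in the double mutant (Ptn to Mdk ratio 0.625 and 1.02). The double-mutant to control ratio was 1.36 for Ptn and 0.833 for Mdk in TPM, and in CPM 1.34 (95% interval 1.08 to 1.67) and 0.821 (0.598 to 1.1), counting error only, with no replicate check. Of 14437 genes compared, 11.8% had a larger ratio than Ptn, and the median log2 ratio was -0.29 against 0.44 for Ptn and -0.26 for Mdk. The summed TPM of the 8 CSC markers was 2.31 and 14.3, that of the basal markers 17.7 and 11.3, and that of the fibroblast markers 94.0 and 87.7. These libraries differed in age as well as genotype, which cannot be told apart.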

How the data were processed

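Single cells of dissociated, FACS-sorted, methanol-fixed submandibular glands were profiled by Drop-seq. The authors deposited raw UMI counts per gene and barcode (Drop-seq tools, GENCODE vM7, mm10). By the paper, CITE-seq RNA was processed by the same pipeline, while antibody tags were counted with CITEseq-count. Its CITE-seq cells were used immediately, with a few human HEK cells added as a spike-in. The paper removed human cells and doublets by a second mapping, and no such step was run here. For bulk RNA-seq the authors deposited read counts per gene with gene lengths. STAR and featureCounts are named in the submitters' processing notes. Whether tag counts are UMIs or reads is not given in the sources used here.

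Ptn and Mdk, the gene lists and the markers were chosen with earlier results of these data known. Kept cells had at least 100 genes and at most 15% mitochondrial UMIs (CITE-seq cells at most 2500 genes). Drop-seq cells were clustered (2000 variable genes, 30 principal components, 20 neighbors, Leiden resolution 1; basal-like cells again at 0.2) with Ptn, Mdk and the 18 binding partners held out, 20 genes in all, using Python 3.11.15 with scikit-learn 1.9.0 and leidenalg 0.10.2. Names went to clusters with 3 or more markers, and most of a list, that were 2-fold above the median of the other clusters and seen in 10% of the cluster. Basal sub-clusters were compared with the other basal-like cells instead. At least 1 marker had to be among the 10 leading genes, and a type named for a gene needed that gene. This rule was set after the clusters had been seen. No doublet step was run; leaving out the top 5% of cells by UMIs was tried. Depth was 650301 to 6994504 UMIs per Drop-seq gland.

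Counts were summed per gland, and edgeR 4.0.16 (TMM, filterByExpr, quasi-likelihood test, Benjamini-Hochberg over all genes tested, threshold 0.05) was fitted in R 4.3.3. Sex was tested with genotype and stage as covariates, genotype with sex and stage, and the 2 against 2 CITE-seq glands with none. Bulk TPM used the deposited lengths. Named genes were Ptn, Mdk and all genes of both lists that passed a test. Intervals are 95% exact Poisson or Clopper-Pearson. Tried alternatives were DESeq2 1.42.0, no filter, thinning, title prefix (batch) or replicate number as a term, other resolutions and left-out libraries. The labels do not say that glands with one replicate number share anything, and over 37 same-number Drop-seq pairs the deviations correlated by -0.428 to 0.741 (median 0.0712), so numbers were not taken as pairs. On simulated counts with known changes, the sex, genotype and basal-like fits recovered 100% of changes of 1.5 and 3 on the log2 scale. The interaction fit recovered 54 and 98%, and the CITE-seq fit 14.6 and 86.6%. The simulation gave every gene the same spread and placed changes only in genes above a floor of counts. These rates therefore do not give the power for genes as sparse or as variable between glands as Mdk and Ptn. Values of 2 genes are not reported here.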

Additional observations from a re-analysis of the deposited data

Results flagged for a closer look

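Of 14 groups of 4 to 10 glands examined, 4 held a gland far from the others by Dixon's criterion. For normally distributed values, chance alone gives this in about 1 of 20 groups. The CPM values here were skewed and some rested on few UMIs, so this rate does not hold for them. In control P40 glands, replicate 1 (a female) was apart for both genes, with Ptn at 89.5 CPM against 28.2 CPM in the next gland and Mdk at 8.17 against 2.70 CPM. Among basal tumor-like cells, Ptn in double-mutant P90 replicate 6 was 769 CPM against 399 CPM in the next gland, and rested on 5 UMIs in 14 cells. Mdk in CSC-like cells of double-mutant P90 replicate 2 was 112 CPM against 38.7 CPM, and rested on 1 UMI in 12 cells.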

How the results depend on the processing

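Of 418 recomputed values, 347 were counted as kept and 4 turned direction. The rule depended on the kind of value. Log2 fold changes had to keep their direction and their side of the threshold, which 137 of 177 for named list genes did. Counts of genes and ratios of means had to stay within 1.5 times, and bulk ratios within a counting interval. Group means and cell type levels had to move by less than 1 SD between glands, which is lenient where SDs are as large as the means. By sex, the Ptn log2 fold change was -2.41 to -1.23 over 9 alternatives and called only without the filter on low counts (-1.74, edgeR adjusted p = 0.000269). Mdk by sex turned within double-mutant glands (0.046, edgeR adjusted p = 1), and was too sparse to be tested within control glands or in thinned glands. The fits within 1 genotype, and the cell type levels without double-mutant P90 replicate 4 or the 2 libraries against their labelled sex, and the ratios of means without single glands, were chosen after seeing the data. Genes called by sex went from 38 to 66 with DESeq2 (75.8% of calls higher in males, 92.1% in the reported fit), 269 with no filter (41.3%), 66 without the 2 libraries against their labelled sex (72.7%), 14 with batch as a term, 23 in thinned glands, 91 within control and 0 within double-mutant glands. The interaction called 0 genes, and 2 with DESeq2.

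In CITE-seq, Ptn was called under all 7 alternatives (edgeR adjusted p up to 0.0172 without a library) and Mdk only with the replicate block (1.30, edgeR adjusted p = 0.0408). The pairing of CITE-seq glands by number was not supported by their deviations (correlation 0.00832). Genes called there went from 1379 to 644 with DESeq2, 2356 with no filter and 380 to 1050 without 1 library, and binding partners called higher from 4 to between 1 and 3. In Drop-seq glands by genotype, genes called went from 2308 to 3998 with the replicate block, 300 with batch as a term (93% of calls higher, against 65.6%) and 1042 thinned, and binding partners from 7 to 2 with batch and 4 thinned. In basal-like cells, genes called went from 139 to 329 with no filter, 236 with the replicate block and 1 with batch, and binding partners from 3 to 0 with batch. Sdc4 in whole glands (-0.02) turned to 0.0044 with DESeq2, 0.027 with batch and 0.024 thinned. The cause of these changes was not tested. Leaving out 1 gland at a time moved the double-mutant to control ratio of mean Ptn within 5.19 to 14.8 at P40 and 6.23 to 11.5 at P90, and that of Mdk within 2.76 to 6.59 and 0.797 to 1.49. All 70 recomputed levels by cell type, including other resolutions and the top 5% of cells by UMIs left out, moved by less than 1 SD between glands.

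Mdk rested on 1 to 38 UMIs and Ptn on 2 to 792 UMIs per Drop-seq gland, and 418 of 1377 basal-like cells were too shallow for thinned shares. Only 66 control fibroblast-like cells were found. Control stages differed in title prefix, and bulk libraries were single.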

Other observations

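The antibody tags of the CITE-seq cells gave a second readout that was used in no comparison above. The tag for CD29, the protein of the binding partner Itgb1, made up a larger share of a cell's tag counts in cells with a Ptn UMI than in cells without one in all 4 libraries. The medians were 6.72 against 1.73% (23 and 615 cells) and 5.5 against 1.49% (16 and 481 cells) in the double mutants, and 11 against 4.66% (9 and 663 cells) and 9.39 against 3.76% (16 and 712 cells) in the controls. The tag for EpCAM, a protein of epithelial surfaces, gave 1.31 against 0.496% and 0.968 against 0.447% in the double mutants and 4.06 against 2.09% and 3.06 against 2.01% in the controls. Of 61 tags, these 2 are given as values, with no test.

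CITE-seq cells were not clustered, and each was typed from its own UMIs of the same marker lists. By this, 6 double-mutant cells were CSC-like and carried 96 Ptn UMIs (11245 CPM, 95% exact Poisson interval 9109 to 13732 CPM), 24% of the double-mutant Ptn UMIs. Cells typed luminal Clu+ held another 36.3%, with 145 UMIs in 7 of 85 cells (1110 CPM). This type is not the same as the clustered luminal Clu+-like cells of Drop-seq, which had 30.6 CPM of Ptn in double mutants. Fibroblast-like cells held 42 of the 49 double-mutant Mdk UMIs (317 CPM in 101 cells) and 15 of the 28 control Mdk UMIs (360 CPM in 46 cells). None of 356 double-mutant immune-like cells had a Ptn UMI, at a median depth of 712.5 UMIs; the 95% exact binomial upper limit on the share of cells with a UMI was 1.03%, which does not limit the share of cells that express the gene.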
